A study of Homo sapiens with 9 samples.

Results

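The replication-dependent histone genes, which lie in clusters and carry the symbols HIST1H, HIST2H, HIST3H and HIST4H, were followed in H1650 cells after siRNA transfection. They were taken as every gene of the deposited expression table whose symbol starts with one of these prefixes, which gave 65 of 16630 genes. H1650 is an established line of human lung cancer cells of the non-small cell type. All 9 libraries were of total RNA collected on day 3 after transfection with siRNA at 20 nM, in 3 groups of 3. The siMENA group received pooled siRNAs against all hMENA transcripts of the gene ENAH, a regulator of actin filament growth. For the siMENA11a group, 3 siRNAs directed at exon 11a were mixed, an exon carried by hMENA11a, the isoform of epithelial cells. The control group received a non-targeting pool. The submitters describe the libraries of a group as biological replicates, and every group is the same cell line, so the values describe 1 line and 1 siRNA preparation per group.

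These genes supply the histones that package newly made DNA, and their mRNAs accumulate in S phase and are degraded when replication ends. The core histones H2A, H2B, H3 and H4 form the nucleosome and the linker histone H1 binds the DNA between nucleosomes. Most of the mRNAs end in a conserved stem-loop in place of a poly(A) tail. The stem-loop is bound by SLBP, the protein needed for processing and translation of these mRNAs. The libraries were made from ribosome-depleted RNA without selection for poly(A), so mRNAs without a tail could be measured.

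Of the 65 genes, 5 belong to the H1 family, 16 to H2A, 20 to H2B, 11 to H3 and 13 to H4. By their symbols, 53 are in the HIST1 cluster on chromosome 6, 9 in HIST2 and 2 in HIST3 on chromosome 1, and 1 is HIST4H4 on chromosome 12. Expression was given as FPKM, fragments scaled by transcript length and by the library total. The test took 62 of the genes. HIST2H4A and HIST1H4I each had 3 missing values and at most 0.735 and 1.37 FPKM in the others, and HIST2H2AA3 averaged 0.299 FPKM, under the minimum mean of 0.5 FPKM. Of the tested genes, 41 averaged at least 100 FPKM, 16 lay from 10 to 100 FPKM and 5 were under 10 FPKM. Their median level was 151 FPKM, against 10.8 FPKM for all 13273 genes tested. Reads of near-identical copies can be split between genes. Every 75-base window of HIST1H4K also occurs in HIST1H4J, and every one of HIST2H2AA3 in HIST2H2AA4, so the values of these genes are uncertain. Other tested genes share most of their windows with histone genes. The shares are 85.3% for HIST1H2AM, 82.4% for HIST1H2AJ, 79.6% for HIST1H4J, 70.3% for HIST2H3D and 60.1% for HIST1H2AI. Their values carry the same limit. As deposited, 11 of the 65 genes have whole numbers alone, which were divided by 1000 from the pattern seen in the rest of the table, so their FPKM scale is less certain. They are HIST1H1D, HIST1H2AE, HIST1H2AI, HIST1H2BC, HIST1H2BD, HIST1H2BO, HIST1H3B, HIST1H3F, HIST1H3H, HIST1H4B and HIST1H4F. They enter the summed levels. Kept as deposited, HIST1H1D and HIST1H2BD had log2 fold changes of -0.32 and -0.49 in siMENA11a against control. Dividing every value of a gene by 1000 can alter its fold change only through the 1 FPKM added before the logarithm. These values therefore do not test the scale.

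The target gene and the cell identity were checked first. ENAH was at 4.43, 5.79 and 5.57 FPKM in siMENA libraries and 9.98, 11.0 and 10.3 FPKM in siMENA11a libraries. In control libraries it was at 26.1, 30.04 and 26.1 FPKM. Every library of both siRNA groups lay below every control library, with the siMENA libraries lowest. The values are per gene, so the level of the exon 11a isoform alone cannot be read from them. All 6 epithelial markers passed the filter, with summed levels of 4693 to 4893 FPKM in siMENA, 3939 to 4425 FPKM in siMENA11a and 4820 to 5135 FPKM in control. Of the markers of other cell types, COL3A1 (1 of 6 for fibroblasts) and CD14 (1 of 5 for leukocytes) passed the filter and none of 4 endothelial markers did. Their summed levels were at most 3.79 FPKM for fibroblasts, 7.21 FPKM for leukocytes and 0.491 FPKM for endothelium. Library sums ran from 558754 to 592930 FPKM. The table holds no counts, so the depth behind a value is unknown.

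Histone mRNA as a whole was lower in siMENA11a than in the other groups in its average, but one control library was as low. The summed level of the histone cluster genes was 10740.1, 10729 and 10472 FPKM in siMENA libraries, 8990.2, 9440.2 and 7336 FPKM in siMENA11a libraries and 9115, 11735 and 11220.5 FPKM in control libraries. The siMENA sums lay close together, and the siMENA11a and control sums overlapped because siMENA11a replicate 2 stood above control replicate 1. The means were 10647 ± 152 FPKM in siMENA, 8589 ± 1108 FPKM in siMENA11a and 10690.3 ± 1388 FPKM in control (SD, n = 3 each). This set siMENA at 99.6% and siMENA11a at 80.3% of control. No test was made on the sums. The histone genes took 1.81% to 1.88% of the library sum in siMENA, 1.28% to 1.67% in siMENA11a and 1.60% to 2.01% in control. In bulk RNA, fewer cells in S phase and less histone mRNA per cell cannot be told apart.

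The core histone families stood lowest relative to control in siMENA11a, and the linker histones less so. Summed H4 was at 72.9% of the control mean, H3 at 76.5%, H2A at 79.9%, H2B at 80.5% and H1 at 93.0%. In siMENA the same families stood at 99.5%, 99.0%, 102.1%, 104.0% and 91.1% of control. For H4 the libraries gave 2071, 2078 and 2005 FPKM in siMENA, 1643, 1693 and 1174 FPKM in siMENA11a and 1661, 2324 and 2198 FPKM in control. Control replicate 1 again lay within the siMENA11a range.

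**Figure D1:**
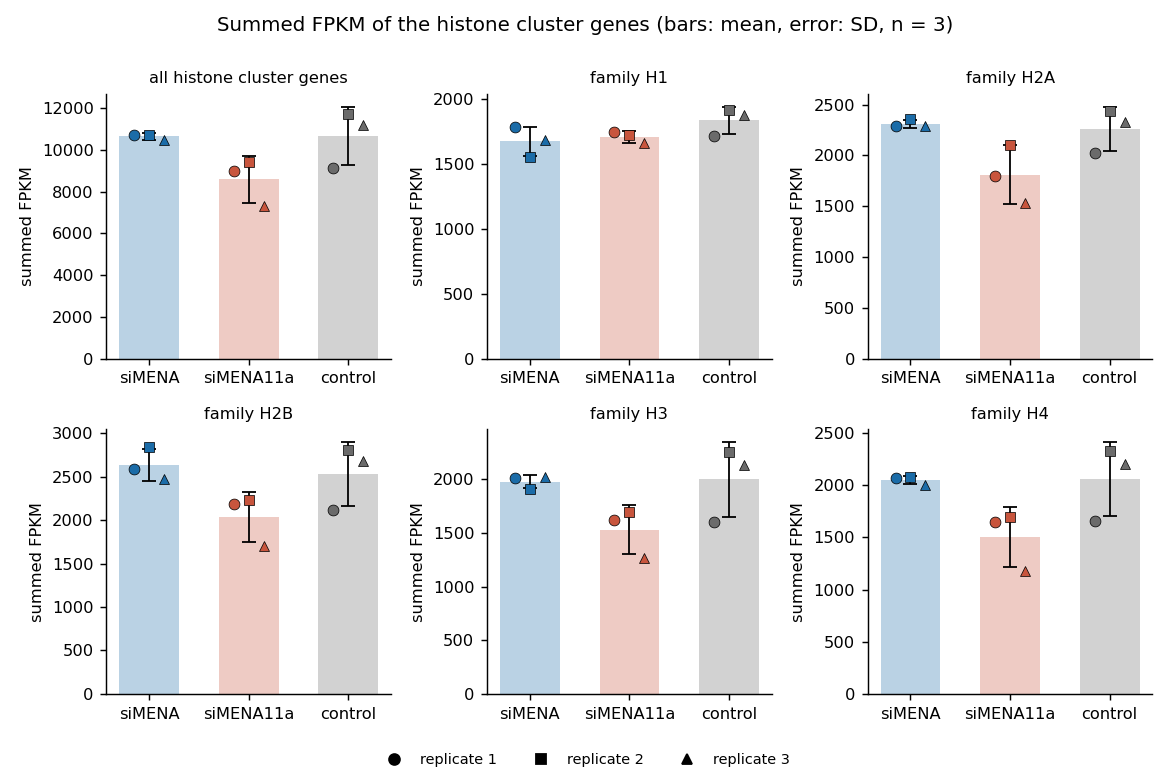
Summed FPKM of all histone cluster genes and of each family in siMENA, siMENA11a and control, with bars for the mean, error bars for the SD and points for the 3 libraries of each group. siMENA11a replicate 3 has the lowest sum in every panel except H1, where siMENA replicate 2 is lowest at 1552 FPKM.

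The libraries that stood apart were siMENA11a replicate 3 and control replicate 1. Of the 62 tested genes, 52 had their lowest value in siMENA11a replicate 3, where 16.9% of all genes did. Of the 62, 26 had their highest value in control replicate 2 (10.5% of all genes) and 16 in siMENA replicate 2 (12.7%). The median log2 difference of the tested histone genes from the control mean was -0.01, 0.03 and -0.03 in siMENA libraries, -0.28, -0.21 and -0.63 in siMENA11a libraries and -0.22, 0.17 and 0.08 in control libraries. The same median over all genes tested stayed between -0.01 and 0.04. For 13 S phase genes, a list of replication licensing and nucleotide synthesis genes, it was -0.11, 0.02 and -0.15 in siMENA, -0.38, -0.09 and -0.41 in siMENA11a and -0.10, 0.11 and -0.03 in control. Their part in the histone differences was not tested.

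siMENA11a against control gave falls across all 5 families and 1 rise. Of 62 histone genes, 22 fell and 1 rose at an adjusted p under 0.05 (limma), where 19.5% of all genes tested passed, 11.3% lower and 8.16% higher. The median log2 fold change was -0.36, against -0.01 over all genes, and 58 of the 62 lay below 0. Above 0 were 6.45% of the histone genes and 47.8% of all genes. Every siMENA11a library was below every control library for 21 histone genes (20.2% of all genes) and above for 2 (16.6%). By family, 3 of 5 H1 genes fell, 6 of 15 H2A, 5 of 20 H2B, 3 of 11 H3 and 5 of 11 H4, and the 1 rise was in H2B. The family medians were -0.27 for H1, -0.31 for H2A, -0.39 for H2B, -0.40 for H3 and -0.44 for H4.

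The count depended on single libraries. It was 7 without siMENA11a replicate 3 (15.6% of all genes), 8 without control replicate 2 (13.2%), 8 without control replicate 3 (11.2%) and 34, all lower, without control replicate 1 (14.0%). Without both control replicate 1 and siMENA11a replicate 3, 31 genes were called, all lower (10.4%), and the median was -0.35. Of these, 19 were among the 23. In every setting tried, 5 of the 23 passed. These were HIST2H2BF, HIST3H2BB, HIST1H2BE, HIST1H1D and HIST1H2AH, all lower.

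**Figure D2:**
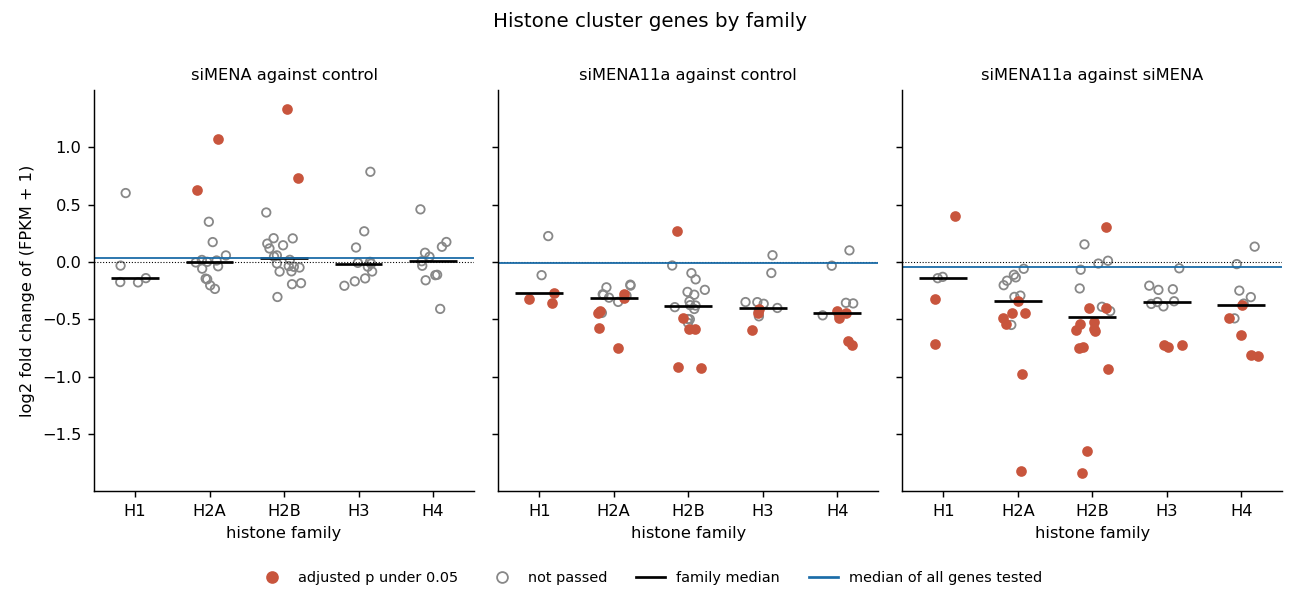
Log2 fold change of FPKM + 1 for each of the 62 tested histone genes, by family, in the 3 comparisons, with filled points for adjusted p under 0.05, black lines for the family median and a blue line for the median of all genes tested. In both comparisons of siMENA11a the family medians lie below the blue line, and in siMENA against control the passing genes are 2 of H2A and 2 of H2B.

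By log2 fold change of FPKM + 1, the largest fall in siMENA11a against control was in HIST2H2BF, an H2B gene of the HIST2 cluster. HIST3H2BB lay close, at -0.92. As a ratio of means the low gene HIST1H2AA fell further, from 1.92 FPKM in control to 0.722 FPKM in siMENA11a. HIST2H2BF was at 43.8, 53.3 and 37.4 FPKM in siMENA, 24.5, 29.5 and 24.8 FPKM in siMENA11a and 39.7, 60.1 and 54.2 FPKM in control. All siMENA11a values lay below all others. Its log2 fold change in siMENA11a was -0.93 ± 0.16 (SE, adjusted p 0.0039) against control and -0.74 ± 0.16 (adjusted p 0.0054) against siMENA. Of the 75-base windows of its transcripts, 16.6% also occurred in other histone genes, so part of its reads could be split with copies.

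Among H4 genes, which encode one and the same protein, HIST1H4D and HIST1H4L fell most. HIST1H4D had 326, 314 and 296 FPKM in siMENA, 187, 208 and 144 FPKM in siMENA11a and 226, 374 and 303 FPKM in control. HIST1H4L had 86.5, 93.7 and 74.2 FPKM in siMENA, 51.2, 55.2 and 37.3 FPKM in siMENA11a and 60.8, 92.7 and 80.6 FPKM in control. For both genes the siMENA11a libraries were below all others, with control replicate 1 the nearest. Their log2 fold changes against control were -0.73 ± 0.17 (adjusted p 0.0174) and -0.69 ± 0.17 (adjusted p 0.0205). Both calls ended without siMENA11a replicate 3, without control replicate 2 or without control replicate 3 (adjusted p 0.0503 to 0.0680). HIST1H4E, among the most abundant H4 genes, fell by 0.49 (adjusted p 0.0153; 0.0618 without control replicate 3). HIST1H4C, also abundant, had a log2 fold change of -0.46 that did not pass (adjusted p 0.0626).

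Of the H3 genes, HIST1H3D fell most. Its level was 94.6, 119 and 117 FPKM in siMENA, 77.4, 72.5 and 51.6 FPKM in siMENA11a and 82.2, 115 and 107 FPKM in control, with every siMENA11a value below the other groups. The log2 fold change against control was -0.59 ± 0.17 (adjusted p 0.0324), and the call ended with 2 groups in the fit and without siMENA11a replicate 3, control replicate 2 or control replicate 3. The more abundant HIST1H3H and HIST1H3B had log2 fold changes of -0.40 and -0.35 that did not pass (adjusted p 0.0812 and 0.107).

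HIST1H2BE and HIST1H2AH were chosen for mention after their values were seen, because their calls passed in every setting. HIST1H2BE was at 188, 195 and 175 FPKM in siMENA, 120.4, 123 and 91.1 FPKM in siMENA11a and 140.3, 192 and 171 FPKM in control. HIST1H2AH was at 201, 197 and 182 FPKM in siMENA, 137, 151 and 112 FPKM in siMENA11a and 172, 216 and 210.1 FPKM in control. In both genes no siMENA11a library reached a library of another group. Their log2 fold changes against control were -0.59 ± 0.13 (adjusted p 0.0130) and -0.58 ± 0.12 (adjusted p 0.00799).

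The linker histones split. HIST1H1C, the most abundant histone gene of the table, was at 592, 492 and 581 FPKM in siMENA, 760.5, 692 and 740.4 FPKM in siMENA11a and 611, 642 and 620.5 FPKM in control. All siMENA11a libraries were above all others. Its log2 fold change was 0.23 ± 0.08 against control, which did not pass (adjusted p 0.0893), and 0.40 ± 0.08 against siMENA, which did (adjusted p 0.00486). HIST1H1D, in contrast, was at 333, 302 and 311 FPKM in siMENA, 286, 297 and 274 FPKM in siMENA11a and 332, 369 and 369 FPKM in control. It fell by 0.32 ± 0.07 against control (adjusted p 0.0104), with no overlap between these groups.

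HIST1H1E and HIST1H1B also fell in siMENA11a against control, by 0.27 (adjusted p 0.0318) and 0.35 (adjusted p 0.0415). With quantile normalization or without siMENA11a replicate 3 neither call passed, nor without siMENA11a replicate 1, control replicate 2 or control replicate 3. HIST1H1T, the linker histone gene known from testis, was at 2.92, 3.84 and 2.29 FPKM in siMENA, 2.51, 0.873 and 1.14 FPKM in siMENA11a and 1.53, 2.15 and 1.24 FPKM in control. The siMENA and siMENA11a values overlapped, and its log2 fold change between these groups was -0.72 (adjusted p 0.0349), a call that ended without 1 of several libraries. As a share of summed H1, HIST1H1C took 33.2%, 31.7% and 34.4% in siMENA, 43.5%, 40.2% and 44.6% in siMENA11a and 35.5%, 33.5% and 33.0% in control. The siMENA11a shares lay above all others, while the shares of HIST1H1B, HIST1H1D and HIST1H1E averaged 16.7%, 16.7% and 23.7% in siMENA11a and 19.8%, 19.4% and 26.6% in control.

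**Figure D3:**
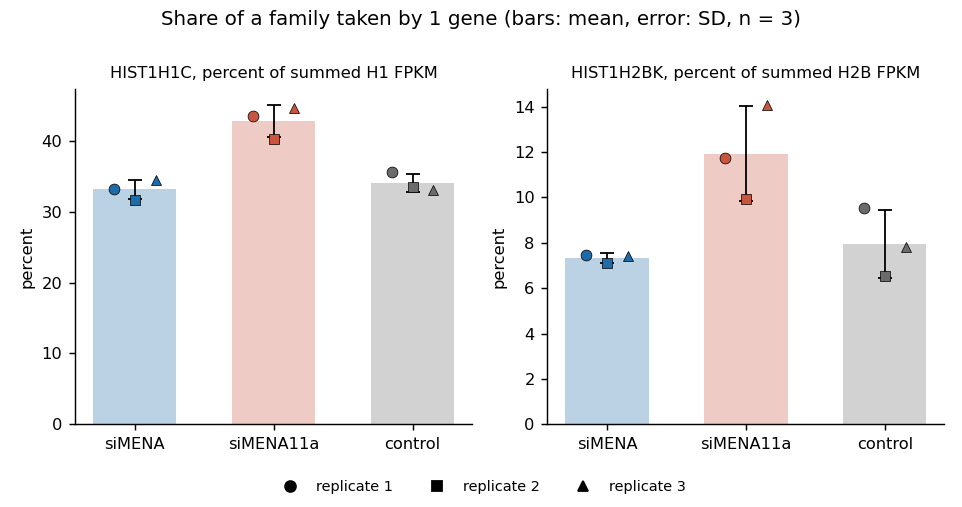
Share of HIST1H1C in summed H1 FPKM (left) and of HIST1H2BK in summed H2B FPKM (right), in percent, with bars for the mean, error bars for the SD and points for the 3 libraries of each group. The siMENA11a libraries lie above all others in both panels, at 40.2% to 44.6% on the left and 9.92% to 14.1% on the right.

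The 1 gene that rose was HIST1H2BK, an H2B gene. It had 194, 202 and 184 FPKM in siMENA, 256, 221 and 240.5 FPKM in siMENA11a and 202, 183 and 209 FPKM in control. Each siMENA11a library was above each library of the other groups. The log2 fold change was 0.27 ± 0.07 against control (adjusted p 0.0299) and 0.31 ± 0.07 against siMENA (adjusted p 0.00983). The rise against control did not pass with 2 groups in the fit or when siMENA11a replicate 1, siMENA11a replicate 3, control replicate 1 or control replicate 2 was left out (adjusted p 0.0612 to 0.104, over all settings 0.0107 to 0.106), whereas the rise against siMENA passed in every setting. HIST1H2BK took 7.47%, 7.10% and 7.43% of summed H2B in siMENA, 11.7%, 9.92% and 14.1% in siMENA11a and 9.53%, 6.52% and 7.81% in control.

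HIST1H2BK and HIST1H1C belong to a list of 6 cluster genes known to give polyadenylated mRNA as well. In siMENA11a against control 1 of the 6 rose, 2 fell and 3 stayed short of the threshold, where 19.5% of all genes passed, and the median was -0.09. The falls were HIST1H2BD (log2 fold change -0.48, adjusted p 0.0201) and HIST1H2AC (-0.28, adjusted p 0.0318), and both calls ended without siMENA11a replicate 3, control replicate 2 or control replicate 3, that of HIST1H2AC also with quantile normalization or 2 groups in the fit. HIST1H2BC was at -0.03 and HIST2H2BE at -0.15, with adjusted p 0.848 and 0.687. Against siMENA, 2 of the 6 rose and 1 fell, where 36.6% of all genes passed, and the median was 0.08. Whether this list differs from the other histone genes was not tested.

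siMENA against control left most histone genes near their control level, with rises in 4. Of 62 genes, 4 rose and none fell (limma, adjusted p under 0.05), where 18.6% of all genes passed, 10.3% higher and 8.24% lower. At an unadjusted p under 0.05, 7 were higher and 2 lower, with no share of all genes known at that threshold. The median log2 fold change was -0.01, against 0.04 over all genes. Every siMENA library was above every control library for 8 histone genes (23.8% of all genes) and below for 3 (16.3%). The 4 genes that rose make up 2 H2A/H2B pairs, HIST1H2AA with HIST1H2BA at one end of the HIST1 cluster on chromosome 6, and HIST3H2A with HIST3H2BB on chromosome 1. In each pair the genes start back to back and are transcribed away from each other. Without control replicate 1 and siMENA11a replicate 3, 4 genes rose and 7 fell (12.3% of all genes).

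HIST1H2AA and HIST1H2BA are known as testis histone genes and were among the lowest of the tested members. HIST1H2AA was at 5.12, 5.66 and 4.36 FPKM in siMENA, 1.04, 0.689 and 0.442 FPKM in siMENA11a and 1.49, 2.77 and 1.51 FPKM in control. HIST1H2BA was at 9.45, 13.8 and 9.19 FPKM in siMENA, 3.43, 2.97 and 0.969 FPKM in siMENA11a and 3.98, 3.78 and 3.11 FPKM in control. The siMENA libraries lay above all others for both genes. For HIST1H2AA all siMENA11a values lay below control, while for HIST1H2BA these groups overlapped through siMENA11a replicate 1.

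In siMENA against control HIST1H2AA rose by 1.07 ± 0.18 (SE of the log2 fold change, adjusted p 0.0035) and HIST1H2BA by 1.34 ± 0.27 (adjusted p 0.00839). Both calls passed in every setting. In siMENA11a against control HIST1H2AA fell by 0.75 (adjusted p 0.0167), a call that ended without siMENA11a replicate 3 (adjusted p 0.0542, over all settings 0.00635 to 0.0563). HIST1H2BA was at -0.50 and did not pass (adjusted p 0.224). Fold changes are of FPKM + 1 and understate the change of genes as low as these.

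HIST3H2A and HIST3H2BB were expressed at higher levels. HIST3H2A was at 87.6, 107 and 76.6 FPKM in siMENA, 47.7, 48.9 and 39.3 FPKM in siMENA11a and 52.8, 62.5 and 58.0 FPKM in control. HIST3H2BB was at 148, 147 and 121.4 FPKM in siMENA, 46.5, 51.9 and 34.0 FPKM in siMENA11a and 63.6, 95.9 and 93.4 FPKM in control. In both genes the groups stood apart with no overlap, siMENA highest and siMENA11a lowest. HIST3H2A rose in siMENA by 0.63 ± 0.12 (adjusted p 0.00753) and was at -0.35 in siMENA11a, which did not pass (adjusted p 0.0746). HIST3H2BB rose in siMENA by 0.73 ± 0.18 (adjusted p 0.0198) and fell in siMENA11a by 0.92 ± 0.18 (adjusted p 0.0072). The rise of HIST3H2BB did not pass without siMENA replicate 1, siMENA replicate 2 or control replicate 1 (adjusted p 0.0580 to 0.0733, over all settings 0.0124 to 0.0733), and its fall passed in every setting.

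**Figure D4:**
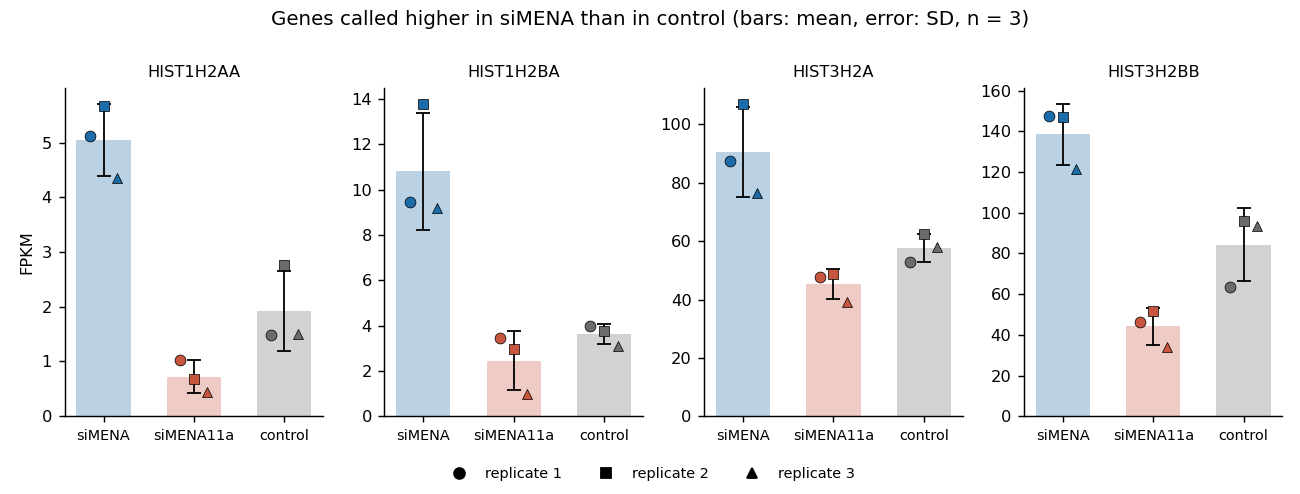
FPKM of HIST1H2AA, HIST1H2BA, HIST3H2A and HIST3H2BB in siMENA, siMENA11a and control, with bars for the mean, error bars for the SD and points for the 3 libraries. The siMENA points lie above every point of the other groups in each panel.

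The stretch between the genes of each pair serves as the promoter region of both, and it is printed here because these 2 pairs moved together. The sequences are the 250 bases before the start of the H2B gene, from RefSeq on GRCh38.p14, on the strand of the H2B gene. Capitals mark, on either strand, the octamer ATTTGCAT, which is bound by POU2F1, the box CCAAT and the TATA box letters TATAAA. The region before HIST1H2BA is chr6:25726527-25726776 on the plus strand, that before HIST3H2BB is chr1:228457853-228458102 on the plus strand, and that before HIST1H2BK, the gene that rose in siMENA11a, is chr6:27146859-27147108 on the minus strand.
HIST1H2BA: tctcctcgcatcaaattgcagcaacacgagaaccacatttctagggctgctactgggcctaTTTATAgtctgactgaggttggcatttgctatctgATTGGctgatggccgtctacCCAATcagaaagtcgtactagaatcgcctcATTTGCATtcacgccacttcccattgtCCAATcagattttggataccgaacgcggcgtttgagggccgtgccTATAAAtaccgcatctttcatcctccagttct
HIST3H2BB: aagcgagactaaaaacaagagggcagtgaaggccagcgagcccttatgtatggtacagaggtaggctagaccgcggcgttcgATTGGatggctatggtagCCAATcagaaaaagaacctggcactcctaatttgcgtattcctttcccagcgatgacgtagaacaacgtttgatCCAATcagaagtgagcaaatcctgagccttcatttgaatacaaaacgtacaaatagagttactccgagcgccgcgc
HIST1H2BK: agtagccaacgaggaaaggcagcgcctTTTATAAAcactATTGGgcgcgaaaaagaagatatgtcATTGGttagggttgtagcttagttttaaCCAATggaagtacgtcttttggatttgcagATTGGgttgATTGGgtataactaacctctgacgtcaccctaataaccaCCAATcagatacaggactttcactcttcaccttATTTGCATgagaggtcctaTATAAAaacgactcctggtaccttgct

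The pair that rose on chromosome 6 and HIST1H2BK hold the octamer, and the HIST3 pair holds neither the octamer nor the TATA letters within the window searched. That window ran from 250 bases before to 50 bases after the start, and 58 of the 65 genes had an entry. The octamer was in 14 of 18 H2B promoters (77.8%), 11 of 15 H2A (73.3%), 1 of 9 H3 and none of 5 H1 or 11 H4, against 1.80% of all 27305 promoters. CCAAT was in all H1, H2A, H2B and H3 promoters and in 3 of 11 H4, against 35.7% of all promoters. TATAAA was in 63.8% of the histone promoters and 11.95% of all. These matches describe the letters and no binding was measured.

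Besides these 2 pairs, 10 other pairs of histone genes started head to head within 1000 bases in GENCODE 29, so that there were 12 pairs of 23 genes with 218 to 356 bases between starts. Of the 12, 11 join an H2A with an H2B gene and 1, HIST1H2BO with HIST1H3J, an H2B with an H3 gene. HIST1H2BO is also paired with HIST1H2AM, with 313 bases between starts against 356 for HIST1H3J. Of the windows of HIST1H2AM, 85.3% also occur in HIST1H3J, and 38.8% of those of HIST1H3J occur in HIST1H2AM. The model of HIST1H3J may therefore run through HIST1H2AM, and these 2 pairs may count 1 promoter region. Both enter the correlations below, which were not recomputed without either. The starts were 249 bases apart for HIST1H2AA and HIST1H2BA and 233 for HIST3H2A and HIST3H2BB. In siMENA against control no gene of the other 10 pairs passed. Across the 12 pairs, the log2 fold changes of the partners correlated at r = 0.85 in siMENA against control, and at -0.22 over the other 10, so the correlation rests on the 2 pairs. In siMENA11a against control it was -0.07 over the 12. Partners share a promoter region and a library, and 1 gene stands in 2 pairs.

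**Figure D5:**
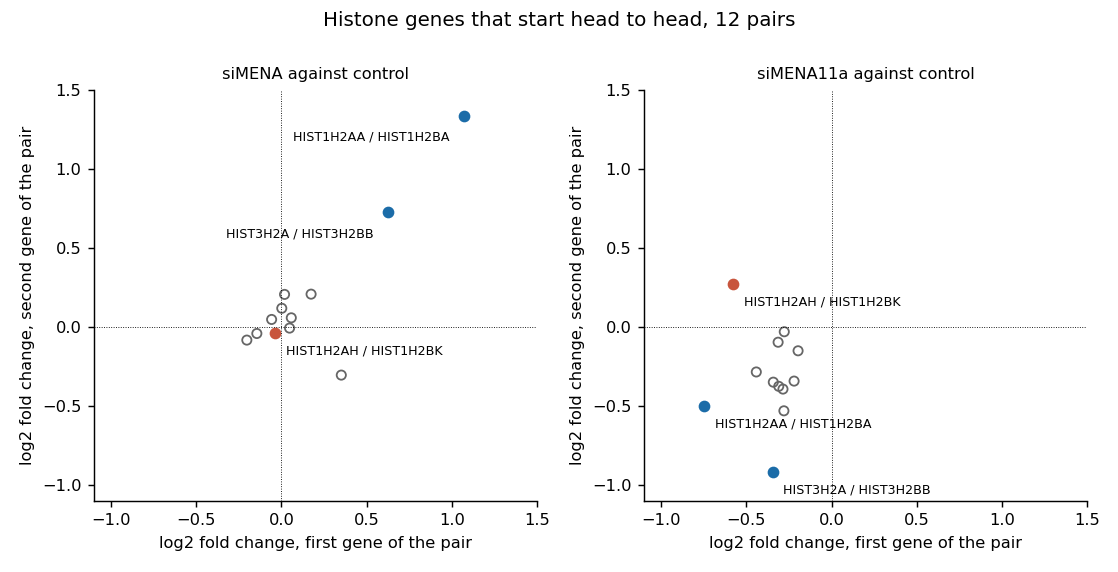
Log2 fold change of FPKM + 1 of the second gene of each head-to-head pair against that of the first, for 12 pairs, in siMENA against control (left) and siMENA11a against control (right). The HIST1H2AA/HIST1H2BA and HIST3H2A/HIST3H2BB pairs stand at the upper right on the left panel, and HIST1H2AH/HIST1H2BK has a fall of its first gene and a rise of its second on the right.

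Partners could also part. HIST1H2AH and HIST1H2BK start 330 bases from each other, and in siMENA11a against control HIST1H2AH fell by 0.58 (adjusted p 0.00799) while HIST1H2BK rose by 0.27 (adjusted p 0.0299). In siMENA their log2 fold changes were -0.04 each, with adjusted p 0.854 and 0.776. HIST1H2AC fell in siMENA11a (-0.28, adjusted p 0.0318) and its partner HIST1H2BC, 218 bases away, was at -0.03 (adjusted p 0.848).

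Other histone genes were high in siMENA without passing. HIST2H3D was at 182, 113 and 159 FPKM in siMENA, 88.4, 115 and 70.2 FPKM in siMENA11a and 59.3, 114 and 93.0 FPKM in control, with a log2 fold change of 0.79 ± 0.26 in siMENA against control (adjusted p 0.0585). siMENA replicate 2 lay within the control range, and 70.3% of the gene's 75-base windows also occur in other histone genes. HIST1H1T was at 0.60 (adjusted p 0.0987) and HIST4H4 at 0.46 (adjusted p 0.12). HIST2H3D and HIST4H4 were picked out after their values were seen.

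siMENA11a against siMENA gave the widest spread of calls, in a comparison where many genes of every kind passed. Of 62 histone genes, 29 were lower and 2 higher in siMENA11a, where 36.6% of all genes passed, 22.2% lower and 14.4% higher. The median log2 fold change was -0.38, against -0.05 over all genes, and 57 of the 62 lay below 0. Above 0 were 8.06% of the histone genes and 43.1% of all genes. No library overlap was seen for 38 genes that were lower in siMENA11a (28.6% of all genes) and 2 that were higher (19.2%). By family, 2 of 5 H1 genes fell and 1 rose, 7 of 15 H2A fell, 12 of 20 H2B fell and 1 rose, 3 of 11 H3 fell and 5 of 11 H4 fell. The genes that rose were HIST1H1C and HIST1H2BK.

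The largest falls in siMENA11a against siMENA were in the pairs described above. The log2 fold changes were -1.84 ± 0.27 for HIST1H2BA (adjusted p 0.000681), -1.82 ± 0.18 for HIST1H2AA (adjusted p 6.85e-05), -1.64 ± 0.18 for HIST3H2BB (adjusted p 0.000127) and -0.97 ± 0.12 for HIST3H2A (adjusted p 0.000286). HIST2H2BA, annotated as a pseudogene, was at 12.9, 15.2 and 11.0 FPKM in siMENA, 7.96, 7.83 and 3.95 FPKM in siMENA11a and 9.14, 10.1 and 8.80 FPKM in control. It fell by 0.93 (adjusted p 0.00617) with no overlap, and 47.1% of its 75-base windows also occur in other histone genes, most of them in HIST2H2BF. HIST1H4L fell by 0.82 (adjusted p 0.00466), HIST1H4D by 0.81 (adjusted p 0.00553) and HIST1H4C by 0.63 (adjusted p 0.0101). Calls that passed in every setting numbered 16 of 31. The count was 17 without siMENA11a replicate 3 (30.8% of all genes), 20 without siMENA replicate 1 (27.3%) and 20 without siMENA replicate 2 (28.5%). Without control replicate 1 and siMENA11a replicate 3 together, 25 fell and 2 rose (30.2% of all genes passed). The 3 comparisons share libraries, and 24 of the 62 genes passed in none of them.

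Position and the 3′ stem-loop were compared with the calls as a description. The HIST1 genes lie in 3 stretches when split at gaps over 300 kb. In siMENA11a against control, 15 of 32 genes fell in the first, 1 of 4 fell and 1 rose in the second and 4 of 16 fell in the third, with medians of -0.42, -0.34 and -0.35. A stem-loop of 2 arms of 6 bases around a loop of 4 was found in GENCODE 29 transcripts of 28 of the 65 genes. For 32 of 63 genes with a coding model, every model ends at the stop codon, so no 3′ sequence could be searched. H2A, H2B and H3 genes shared forms, while the forms of the H4 genes were found in no other family. The 6 forms are given below, named by their genes, with the loop in capitals.
H2A, H2B and H3 genes, 14 of them, HIST3H2A, HIST3H2BB and HIST2H2BF included: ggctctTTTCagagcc
H4 genes, 5 of them, HIST1H4E included: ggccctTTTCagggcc
H2B and H3 genes, 4 of them, HIST1H2BC and HIST1H2BD included: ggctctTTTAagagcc
HIST2H4A and HIST1H4I: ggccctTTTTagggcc
HIST2H2BC and HIST1H2AG: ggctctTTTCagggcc
HIST1H3E: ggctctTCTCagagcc

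Of the tested genes with a stem-loop found, 8 of 25 fell in siMENA11a against control, with a median of -0.35. Of those without one in the models 14 of 37 fell, with a median of -0.38. Of all genes tested, 11.3% fell.

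The proteins that make, process and store these histones were read from lists beside them. S phase genes were lower in siMENA11a. Of 13, 5 fell and none rose against control (limma, adjusted p under 0.05), where 11.3% of all genes fell and 8.16% rose. At an unadjusted p under 0.05 the counts were 11 and 0, with no share of all genes known. The median log2 fold change was -0.29 and all 13 lay below 0, while 47.8% of all genes lay above 0. Among them were MCM3 (-0.43, adjusted p 0.00376), MCM6 (-0.33, adjusted p 0.0293) and MCM4 (-0.30, adjusted p 0.0442) of the replicative helicase and RRM1 (-0.30, adjusted p 0.0401) of ribonucleotide reductase. The MCM3 call passed in every setting, and those of MCM6, MCM4 and RRM1 ended with 2 groups in the fit and without siMENA11a replicate 1, siMENA11a replicate 3, control replicate 2 or control replicate 3. The summed level of the 13 genes was 422, 457 and 417 FPKM in siMENA, 356, 441 and 359 FPKM in siMENA11a and 443, 505 and 454 FPKM in control. siMENA11a replicate 2 came close to control replicate 1. In siMENA against control 3 of the 13 fell, where 8.24% of all genes did, among them MCM3 (-0.36, adjusted p 0.00873) and the licensing factor CDC6 (-0.36, adjusted p 0.0279), and the median was -0.08. The CDC6 call ended without siMENA replicate 1 or 3 or control replicate 2 or 3.

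Of 9 genes for histone gene transcription and S phase entry, 5 fell and none rose in siMENA11a against control (limma, adjusted p under 0.05). Of all genes, 11.3% fell, and the median of the 9 was -0.33. Without adjustment (p under 0.05) the counts were 7 and 0, with no share of all genes known. HINFP, the factor known to bind H4 promoters, was at 6.36, 6.29 and 6.23 FPKM in siMENA, 4.11, 4.35 and 3.60 FPKM in siMENA11a and 5.45, 6.17 and 5.44 FPKM in control. Its siMENA11a values lay below all others and it fell by 0.41 ± 0.08 (adjusted p 0.00569). The S phase cyclin CCNE2 fell by 0.34 (adjusted p 0.00498), CASP8AP2, a component of histone locus bodies, by 0.34 (adjusted p 0.00552), E2F1 by 0.33 (adjusted p 0.0037) and the kinase CDK2 by 0.25 (adjusted p 0.0368). The call of CDK2 ended without a trend and when any 1 of the 6 libraries was left out. NPAT, the coactivator of histone genes that CDK2 phosphorylates, was at -0.10 and did not pass (adjusted p 0.348). In siMENA against control 1 of the 9 rose and 1 fell, where 18.6% of all genes passed. CCNE1 was at 0.28 (adjusted p 0.0475), a call that ended in 12 settings, both other scalings, the fit without a filter and the fit without a trend included (adjusted p over all settings 0.0235 to 0.163). E2F1 was at -0.20 (adjusted p 0.0351), a call that ended without a trend and without 1 of several libraries.

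Of 20 genes for 3′ end processing and turnover of histone mRNA, 4 fell and none rose in siMENA11a against control (limma, adjusted p under 0.05). Of all genes, 11.3% fell, and the median of the 20 was -0.15. Without adjustment (p under 0.05) the counts were 9 and 0, with no share of all genes known. The 4 were CPSF1 (-0.38, adjusted p 0.0236), SNRPG (-0.30, adjusted p 0.0350), ZNF473 (-0.22, adjusted p 0.0285), which joins the stem-loop complex to the U7 particle, and SNRPD3 (-0.22, adjusted p 0.0219). All 4 calls ended without control replicate 3, that of SNRPG also with quantile normalization and that of ZNF473 with 2 groups in the fit. SLBP was at 44.8, 44.7 and 38.4 FPKM in siMENA, 33.5, 37.1 and 34.7 FPKM in siMENA11a and 40.9, 45.0 and 34.6 FPKM in control. The siMENA11a and control values overlapped and SLBP did not pass (-0.18, adjusted p 0.215). In siMENA 2 of the 20 rose, near the 10.3% of all genes that did. They were SNRPB (0.33, adjusted p 0.0196) and CPSF3 (0.22, adjusted p 0.0245), the nuclease that cuts histone pre-mRNA, and both calls ended without control replicate 1. In siMENA11a against siMENA 11 of the 20 fell, where 22.2% of all genes did.

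Of 19 tested chaperone and import genes, 5 fell and none rose in siMENA11a against control (limma, adjusted p under 0.05). Of all genes, 11.3% fell, and the median of the 19 was -0.07. Without adjustment (p under 0.05) 7 were lower and 1 higher, with no share of all genes known. HJURP, the chaperone of the centromeric H3 variant, fell by 0.58 (adjusted p 0.00453), UBN1 of the HIRA complex by 0.43 (adjusted p 0.00195), SSRP1 of the FACT complex by 0.39 (adjusted p 0.00456) and CHAF1B of the replication-coupled assembly factor by 0.38 (adjusted p 0.033). The CHAF1B call ended with 2 groups in the fit and without siMENA11a replicate 1 or 3 or control replicate 2 or 3, and those of HJURP, UBN1 and SSRP1 passed in every setting. CHAF1A completes the count. In siMENA, CABIN1 (0.26, adjusted p 0.0151) and SUPT16H (0.16, adjusted p 0.0487) rose and NAP1L4 (-0.28, adjusted p 0.00552) and RBBP4 (-0.23, adjusted p 0.0231) fell, and this count of 4 of 19 is near the 18.6% of all genes that passed. Of these, the NAP1L4 call passed in every setting, and those of CABIN1 and RBBP4 ended without control replicate 1. The SUPT16H call ended in 11 settings, median-ratio scaling, quantile normalization, the fit of 2 groups and the fit without a trend included (adjusted p over all settings 0.0422 to 0.146).

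Replication-independent variants, which are also made outside S phase and mostly from genes with polyadenylated mRNA, were the remaining list. Of 11 tested, 2 fell and none rose in siMENA11a against control, where 11.3% of all genes fell and 8.16% rose. The 2 that passed are a share near the 19.5% of all genes that passed in either direction. The median was -0.20. H2AFV, a gene of the H2A.Z type, was at 156, 157 and 143 FPKM in siMENA, 121.2, 121.4 and 121.6 FPKM in siMENA11a and 164, 192 and 181 FPKM in control. It fell by 0.55 ± 0.07 (adjusted p 0.00064) with no overlap between groups, and H2AFY2 fell by 0.20 (adjusted p 0.0196), a call that ended without siMENA11a replicate 1, control replicate 1 or control replicate 3. H2AFZ (-0.26, adjusted p 0.125), H2AFX (-0.26, adjusted p 0.24), H3F3B (0.16, adjusted p 0.101), H1F0 (-0.21, adjusted p 0.0574) and H1FX (-0.20, adjusted p 0.139) did not pass. H3F3A, an H3.3 gene, was listed at 9.80, 5.21 and 16.3 FPKM in siMENA, 0.00301, 0.00245 and 14.9 FPKM in siMENA11a and 0.00371, 0.00229 and 4.23 FPKM in control. Such jumps between libraries of a group allow no fold change to be read for it. In siMENA, H2AFY2 rose (0.18, adjusted p 0.0336) and H2AFJ (-0.39, adjusted p 0.0234) and H2AFV (-0.23, adjusted p 0.0353) fell, where 18.6% of all genes passed. Each of these calls ended without siMENA replicate 2 or control replicate 2, that of H2AFY2 also under both other scalings and without a trend, and that of H2AFV also with 2 groups in the fit. The summed level of the variants was 1159, 1212 and 1099 FPKM in siMENA, 1011, 1096 and 1043 FPKM in siMENA11a and 1125, 1276 and 1173 FPKM in control, and every siMENA11a sum lay below every control sum.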

How the data were processed

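The authors deposited 1 table of FPKM values for 16630 genes in 9 libraries. Per the labels' protocols, libraries were stranded and ribosome-depleted. The submitters' processing notes name hg19. For the aligner, quantification tool and annotation, nothing is given in the sources used here. In the deposited FPKM values 11543 were whole numbers. Of these 11524 (7.91% of all values) were read as having lost their decimal point and divided by 1000. Among histone genes 336 of 579 values were divided, in 54 genes. The divided values stood 480 to 2555 times, with a median of 1118 times, above the decimal values of their gene, and 11 histone genes had whole numbers alone, so that their scale rests on the pattern elsewhere in the table. Depth is unknown, so no intervals are given.

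Genes with no missing value and a mean of at least 0.5 FPKM (13273) were compared as log2(FPKM + 1) with limma 3.58.1 in R 4.3.3. One fit over 9 libraries had group as its term and a mean-variance trend, with Benjamini-Hochberg adjustment within each comparison. The code was tested on simulated data. Alternatives were a pseudocount of 0.1, other filters and scalings, a replicate block, fits of 2 groups, no trend, missing values as 0, all-whole genes kept as deposited, and each library left out. The omission of 2 libraries together was chosen after seeing the data.

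The histone genes and lists were chosen with earlier results of these data known. Named genes are the 10 with the highest mean, all H1 genes, per comparison the passing genes that moved most (6 higher, 6 lower), the polyadenylated and testis lists, a few fixed genes of the other lists, and up to 4 passing genes per list and comparison. Numbers in the labels are shared between groups. Deviations from group means correlated between siMENA and control libraries of the same number at 0.124, 0.378 and 0.196, each over 0.1, which counts as pairing by the rule used. The rule does not single out shared numbers, as siMENA replicate 3 and control replicate 1 correlated at 0.113. The column names place the libraries of one replicate number next to each other, and no label names a batch. Promoters came from RefSeq, and gene models from GENCODE 29 on GRCh38, where all 65 symbols matched. HIST3H3 and H3F3C were not used here, and 1 S phase gene counted in its list is not reported here. Stretches of 75 bases shared with other histone genes were absent for 41 of the 65 and covered 2 genes fully.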

Additional observations from a re-analysis of the deposited data

How the results depend on the processing

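Across all settings, 32 of 62 histone genes kept the sign of their log2 fold change in siMENA against control, 55 in siMENA11a against control and 54 in siMENA11a against siMENA. The number passing in siMENA against control was 4 (18.6% of all genes). It became 7 with only these groups in the fit (20.2%) and 11 without control replicate 1 and siMENA11a replicate 3 (12.3%). It ranged from 3 to 5 when each library was left out (10.1% to 15.2%). In siMENA11a against control, 23 (19.5% of all genes) became 14 with only these groups (15.3%), and ranged from 7 to 34 when each library was left out (11.2% to 18.0%). In siMENA11a against siMENA, 31 (36.6% of all genes) ranged from 17 to 38 when each library was left out (27.3% to 36.3%). The cause was not tested, beyond the smaller number of libraries in each fit. With the replicate block the counts were 4, 30 and 34, while the share of all genes called rose too, to 23.7%, 25.8% and 42.6%. Of these histone calls, 23 of the 30 and 30 of the 34 were among those made without the block. Same-numbered siMENA11a and control libraries correlated at 0.206, 0.425 and -0.03, and siMENA11a and siMENA libraries at 0.0863, 0.309 and 0.0203, so for these the numbers do not count as pairing by the rule used. Between different numbers, siMENA11a replicate 3 and control replicate 1 correlated at 0.321. Median-ratio scaling moved the summed siMENA levels to 10407 FPKM for all histone genes, 2260.0 FPKM for H2A and 2005 FPKM for H4, by more than 1 SD of siMENA. No named gene that passed changed sign in these settings, while histone genes near 0 in siMENA against control did. Without control replicate 1 and siMENA11a replicate 3, 7 of the 11 genes called there were lower, against none of 4 otherwise. Of the named gene results, 3022 stayed on their side of the threshold, 277 lost their call and 67 gained one. FPKM values without counts limit what can be said of the low genes, HIST1H2AA, HIST1H2BA and HIST1H1T.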
